A study of Mus musculus with 6 samples.

Results

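The genes that write, copy, read and erase cytosine methylation were followed in mouse embryonic stem cells with lowered Pcl2. They are 10 genes, Tet1, Tet2, Tet3, Dnmt1, Dnmt3a, Dnmt3b, Dnmt3l, Uhrf1, Zfp57 and Trim28, chosen by name, and 23 probe sets were annotated to exactly 1 of them, out of 18193 genes and 34945 probe sets with a single-gene annotation. RNA came from undifferentiated R1 cells, an established mouse embryonic stem cell line kept in serum with leukaemia inhibitory factor (LIF). One group of 3 samples stably expressed a hairpin (shRNA) directed at Pcl2, whose gene symbol is Mtf2 and whose protein is a partner of Polycomb repressive complex 2. The other group of 3 samples stably expressed a mismatch version of it as the control, and the labels give the same culture medium for both. The labels speak of a single Pcl2 shRNA clone and of biological replicates, so a difference may belong to the shRNA or to the clone, which cannot be told apart, and the p-values cover the spread between these cultures. Values are MAS5 signals, the linear brightness of a probe set on an Affymetrix array, given in the order control replicates 1, 2 and 3 and then shRNA replicates 1, 2 and 3. Means carry their SD (n = 3 in either group). Changes are log2 fold changes of shRNA over control on the log2(signal + 7) scale with a standard error (SE).

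DNA methylation is laid on CpG sites by the de novo methyltransferases Dnmt3a and Dnmt3b, helped by Dnmt3l, a relative that has no catalytic activity of its own. Dnmt1 copies the pattern after replication, guided by Uhrf1, which binds hemimethylated DNA. The Tet enzymes oxidise 5-methylcytosine to 5-hydroxymethylcytosine and beyond, and so start its removal. Zfp57 binds methylated imprinting control regions and brings Trim28 (KAP1), which recruits heterochromatin enzymes and protects the imprint. Naive embryonic stem cells are known for low methylation and for Tet2, and the primed epiblast for high Dnmt3b.

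Of the 10 genes, Tet1, Tet2 and Zfp57 rose and Dnmt3b fell. Dnmt1, Dnmt3a, Dnmt3l, Uhrf1 and Trim28 did not pass the test, and Tet3 was too dim to be tested. These 3 rises and 1 fall among 9 tested genes stand beside a background of 12.6% of all 13095 tested genes called, 4.46% higher and 8.16% lower (limma adjusted p below 0.05). The median log2 fold change of the 9 was 0.37, and that of all tested genes was 0.02.

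Since CpG sites are the substrate of these enzymes, the 250 bases upstream of the annotated start of the 4 genes that changed are shown. They are from RefSeq on GRCm38.p6, 5′ to 3′ on the strand of the gene, with each CpG in capitals. For Zfp57, which has 3 annotated starts, the most upstream is shown. The deposited arrays do not say which start these cells use, and methylation itself was not measured.
Tet1 (chr10:62887325-62887574, minus strand): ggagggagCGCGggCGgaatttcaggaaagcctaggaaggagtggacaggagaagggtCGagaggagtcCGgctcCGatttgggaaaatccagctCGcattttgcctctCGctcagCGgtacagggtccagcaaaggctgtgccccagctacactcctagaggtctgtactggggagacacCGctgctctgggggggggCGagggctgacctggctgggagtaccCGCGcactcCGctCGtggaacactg
Tet2 (chr3:133544391-133544640, minus strand): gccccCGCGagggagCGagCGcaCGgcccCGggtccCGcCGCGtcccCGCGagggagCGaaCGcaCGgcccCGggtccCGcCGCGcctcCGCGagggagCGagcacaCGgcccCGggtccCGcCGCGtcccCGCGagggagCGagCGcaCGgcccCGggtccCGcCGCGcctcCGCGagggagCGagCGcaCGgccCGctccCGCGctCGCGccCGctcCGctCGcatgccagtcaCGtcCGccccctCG
Dnmt3b (chr2:153649199-153649448, plus strand): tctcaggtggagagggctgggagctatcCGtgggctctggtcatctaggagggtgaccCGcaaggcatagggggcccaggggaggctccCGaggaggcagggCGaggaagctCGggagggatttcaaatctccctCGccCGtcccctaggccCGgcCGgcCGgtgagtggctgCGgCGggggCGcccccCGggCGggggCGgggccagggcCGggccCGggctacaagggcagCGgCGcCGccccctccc
Zfp57 (chr17:37000913-37001162, plus strand): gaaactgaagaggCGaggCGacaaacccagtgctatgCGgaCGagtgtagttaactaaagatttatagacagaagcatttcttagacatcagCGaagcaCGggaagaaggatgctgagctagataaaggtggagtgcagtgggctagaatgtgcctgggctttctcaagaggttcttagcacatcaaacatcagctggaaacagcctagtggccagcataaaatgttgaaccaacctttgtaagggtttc
The window of Tet2 held 51 CpGs, more than 99.9% of the 32851 promoter windows in the table, and was 83.6% G and C. That of Dnmt3b held 21 CpGs and that of Tet1 held 15, against a median of 6 and an upper quartile of 16 over all windows. That of Zfp57 held 6, and its other 2 starts 3 and 7. The rising genes thus included windows with many and with few CpGs, and the 5 tested genes that did not pass included Dnmt3a, with 38, 40 and 15 CpGs at its 3 starts, and Dnmt3l, with 5, 4 and 3. The motif GGGCGG, searched on both strands, occurred 3 times in the Dnmt3b window, 1 time each in those of Tet1 and Tet2 and not in that of Zfp57, and 32.7% of all windows held it.

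The labels were checked on the targeted gene and on markers. The brightest of 6 Mtf2 probe sets gave 1723 ± 220 in the control and 1028 ± 150 in the shRNA arrays (log2 -0.74, SE 0.17, limma adjusted p = 0.0157), a drop to 59.7%. That call was lost without control replicate 1 (adjusted p = 0.0519) and without shRNA replicate 3 (0.0574). Of the others, 3 gave log2 -0.68, -0.75 and -0.73, and the remaining 2 probe sets were dim and overlapped between groups. The 10 stem cell markers were bright on every array, and their summed signal was 24858 to 32632 in the control and 36988 to 47241 in the shRNA arrays, with Zfp42, Tdgf1, Sox2 and Dppa4 called higher (Sox2 not without control replicate 1, shRNA replicate 2 or shRNA replicate 3). The other 6 were not called. Among these, Dppa5a was the largest term of the sum (means 7601 and 10292), Sall4 gave log2 0.04, and Lin28a alone was below 0 (log2 -0.36). The summed signal of 12 fibroblast markers was 477 to 1137 and 362 to 678, highest in control replicate 1, with Dcn, Lum and Fap at background on all arrays and Twist2 called lower. That of 8 trophectoderm markers was 841 to 1372 and 903 to 1277, with Gata3 at background and Cdx2 and Krt7 called lower. Tfap2c was the largest term of that sum (means 566 and 813), and the median log2 fold change of the 6 tested was -0.76, with 5 at an unadjusted p below 0.05. That of 9 primitive endoderm markers was 239 to 267 and 228 to 258, with Ttr and Afp at background, and that of 7 neural markers was 475 to 535 and 457 to 583; of the 4 genes tested in either list 0 were called by limma, and 0 and 1 had an unadjusted p below 0.05, beside 26.1% of all tested genes. Fewer cells of a type and less RNA per cell cannot be told apart in such bulk samples, and the part of these marker differences in the results was not tested.

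**Figure D1:**
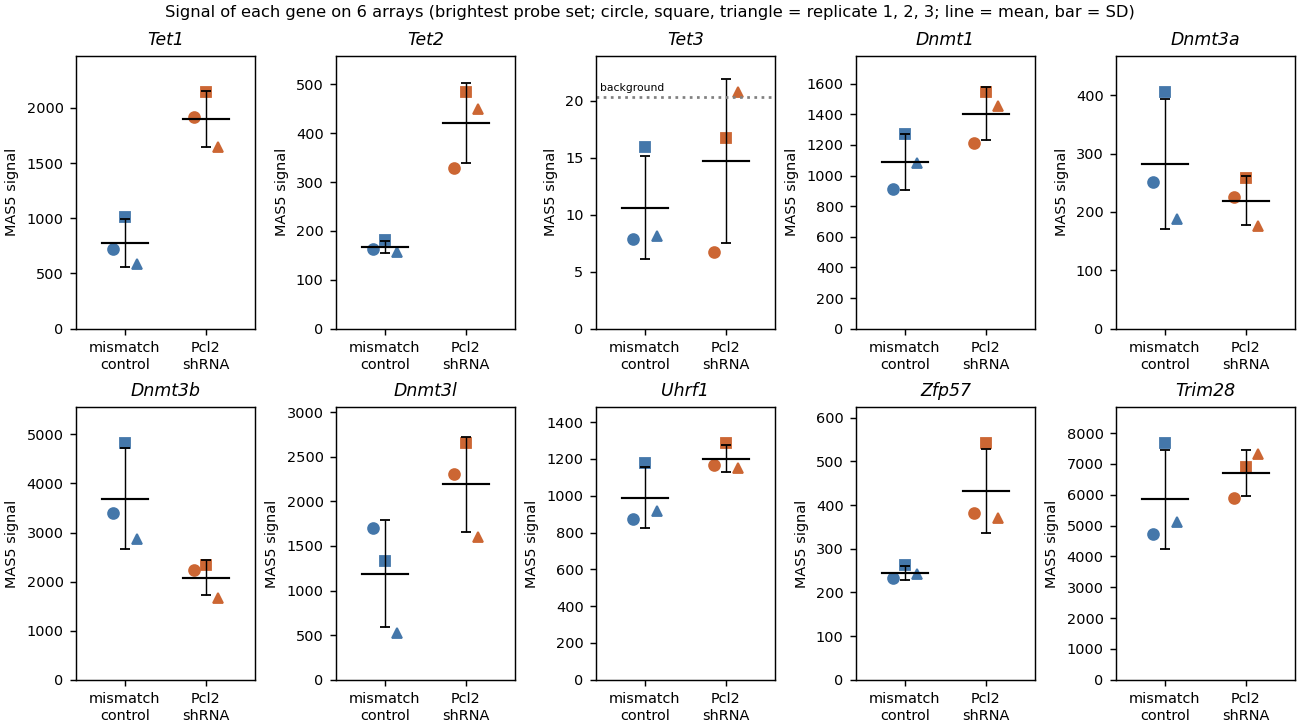
MAS5 signal (vertical axis, linear, from 0) of the brightest probe set of each of the 10 genes on the 3 mismatch control arrays (blue) and the 3 Pcl2 shRNA arrays (orange); circles, squares and triangles are replicates 1, 2 and 3, lines are means and bars SD. The groups separate for Tet1, Tet2, Zfp57 and Dnmt3b and overlap for the other 6, and Tet3 lies around the background of 20.3.

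Tet1, the most studied methylcytosine oxidase of embryonic stem cells, was higher on every shRNA array. Its brightest probe set read 723, 1011 and 589 in the control and 1914, 2147 and 1644 in the shRNA arrays. Every shRNA array lay above every control array, and the mean went from 774 ± 215 to 1902 ± 252 (log2 1.32, SE 0.21, limma adjusted p = 0.0026), which is 2.49-fold. A rise at least as large was seen for 1.09% of all tested genes. The other 3 Tet1 probe sets gave log2 1.4, 1.26 and 1.34, each with the groups apart and each called over all 23186 probe sets tested. Among them was a dim one that read 24.9, 33.9 and 31.1 in the control and 128, 73.1 and 66.9 in the shRNA arrays. The 4 probe sets were designed from 3 different source sequences and read the same RNA, so they are not replicates of each other. Tet1 stayed called in each of the 6 fits without 1 array, with log2 1.14 to 1.52 and adjusted p up to 0.0173.

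Tet2, which lacks the CXXC domain of Tet1 and Tet3 and shares their catalytic domain, rose by a like amount. Its brighter probe set read 163, 181 and 157 in the control and 329, 485 and 449 in the shRNA arrays. The control arrays were close together and all shRNA arrays were above them, with means of 167 ± 12.1 and 421 ± 81.6 (log2 1.28, SE 0.19, adjusted p = 0.00183). The other probe set read 18.8, 40.8 and 27.0 in the control, where 1 array was at or below the background of 20.3, the highest signal of the bacterial control probes, and 176, 160 and 89.4 in the shRNA arrays (log2 2.04, SE 0.31). That larger value did not separate from the first: within arrays the difference between both probe sets moved by log2 0.76, with overlapping groups (exact two-sided permutation p = 0.2; this comparison was chosen after the values were seen). Tet2 was called in each of the 6 fits without 1 array, with log2 1.17 to 1.45.

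Tet3, the oxidase of the oocyte and zygote, had a single probe set, which read 7.90, 15.9 and 8.14 in the control and 6.75, 16.7 and 20.8 in the shRNA arrays. Only shRNA replicate 3 exceeded the background, and the groups overlapped (exact two-sided permutation p = 0.6), so no fold is given. Whether Tet3 changed was not detectable at this brightness.

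Dnmt3b, the de novo methyltransferase that marks the primed epiblast, went the other way. Its brighter probe set read 3388, 4830 and 2859 in the control and 2242, 2335 and 1665 in the shRNA arrays. The groups did not overlap, and the means were 3693 ± 1020 and 2080 ± 363, or 56.3% of the control (log2 -0.81, SE 0.21, adjusted p = 0.0336). The second probe set read 980, 1854 and 642 against 417, 477 and 282, a larger fall to 33.9% (log2 -1.44, SE 0.34, adjusted p = 0.0253 over all probe sets). Leaving out control replicate 1, shRNA replicate 1 or shRNA replicate 3 took the adjusted p of this probe set to 0.0574, 0.0569 and 0.0737. With all arrays and dim probe sets kept, its limma adjusted p was 0.0525. Within arrays the second fell by 0.64 more than the first on the log2 scale, and every shRNA array was below every control array in that difference (exact two-sided permutation p = 0.1, the smallest that 3 against 3 arrays allow, and 0.2 adjusted over the 2 such comparisons, both chosen after the values were seen). Both were designed from 1 source sequence, and the transcript forms they read are not distinguished here. The call on the brighter probe set was near the threshold. Leaving out control replicate 3 kept it (log2 -0.97, adjusted p = 0.019). Leaving out any of the other 5 arrays lost it, with log2 -0.90 to -0.60 and adjusted p of 0.0618 to 0.103. With all arrays it was lost under median centring (adjusted p = 0.0503), with dim probe sets kept (0.0616) and with an eBayes prior that had no trend (0.0659).

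Dnmt3l, the cofactor of the de novo enzymes, was higher on average, with wide spread. It read 1700, 1334 and 529 in the control and 2307, 2658 and 1606 in the shRNA arrays, and the highest control array lay above the lowest shRNA array. The log2 fold change of 1.01 (SE 0.37) did not pass (adjusted p = 0.109). In each replicate number the shRNA array was above the control array of the same number, and with the replicate number as a block Dnmt3l passed (adjusted p = 0.00479). It also passed with array weights (0.047) and without control replicate 1 (log2 1.34, adjusted p = 0.0451), while without control replicate 3, its lowest array, the value was log2 0.51 (adjusted p = 0.3). Its only probe set is of a kind that can also read other transcripts. So are the brighter one of Trim28, the dimmer ones of Dnmt1 and a further one of Tet1.

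Dnmt3a, the other de novo enzyme, gave no call on any of its 5 probe sets, all designed from 1 source sequence. The brightest read 251, 406 and 188 in the control and 225, 258 and 175 in the shRNA arrays (log2 -0.30, 95% interval -0.90 to 0.30, adjusted p = 0.544). The other 4 gave log2 -0.08, -0.28, -0.42 and -0.34, of which only that at -0.42 had separate groups, with 100, 118 and 97.6 against 77.0, 82.6 and 71.5. All 5 were below 0 in the fit with all arrays, with intervals that reach or span 0. The least precise of them, at -0.08, turned positive with array weights and in 3 of the 6 fits without 1 array.

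Of the maintenance pair, Dnmt1 read 910, 1272 and 1083 in the control and 1211, 1548 and 1453 in the shRNA arrays. The groups overlapped by 1 array, and the log2 fold change of 0.37 (95% interval -0.01 to 0.75) did not pass (adjusted p = 0.205); with the replicate number as a block it did (adjusted p = 0.0442). Its other 2 probe sets gave 0.33 and 0.38. Uhrf1 read 872, 1178 and 918 against 1165, 1288 and 1153 (log2 0.29, 95% interval -0.07 to 0.65, adjusted p = 0.296), and its second probe set gave 0.23. Both genes were thus measured with intervals narrow enough to leave out a change as large as that of Tet1, and neither was shown to be level.

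Zfp57, the imprint guardian, rose. It read 232, 262 and 242 in the control and 382, 543 and 370 in the shRNA arrays, with no overlap and means of 245 ± 15.8 and 432 ± 96.3 (log2 0.78, SE 0.19, adjusted p = 0.0211). The call was lost without control replicate 1 (log2 0.74, adjusted p = 0.0693) and without shRNA replicate 2, its highest array (log2 0.60, adjusted p = 0.114). Its corepressor Trim28 was among the brightest of the signals, at 4729, 7687 and 5131 in the control and 5882, 6912 and 7312 in the shRNA arrays. The groups overlapped (log2 0.22, 95% interval -0.21 to 0.66, adjusted p = 0.536), and a second probe set gave 0.26.

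**Figure D2:**
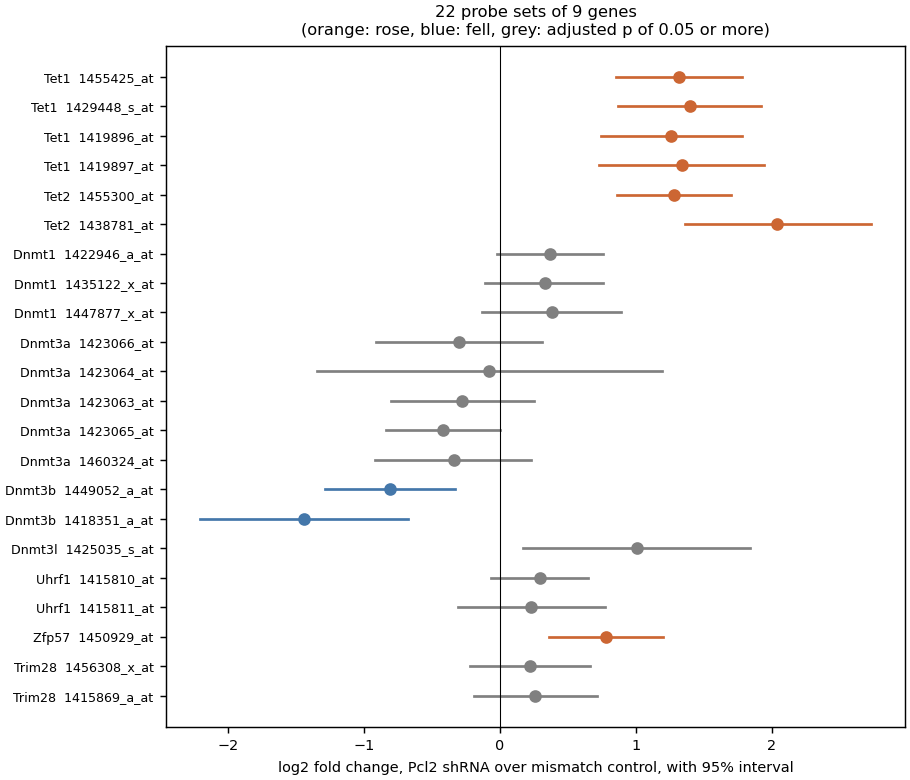
log2 fold change of Pcl2 shRNA over mismatch control (horizontal axis) with its 95% interval for the 22 probe sets above the signal filter, by gene; orange rose, blue fell and grey had a limma adjusted p of 0.05 or more. All 4 Tet1 and both Tet2 probe sets lie between 1.26 and 2.04, both of Dnmt3b at -0.81 and -1.44, and the 5 of Dnmt3a between -0.42 and -0.08.

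Over all probe sets of these genes, 7 of 22 tested were called higher and 2 lower, against 3.61% and 6.83% of all 23186 probe sets. The 7 higher ones were those of Tet1, Tet2 and Zfp57, and the 2 lower ones those of Dnmt3b. These same 9, and 1 of Dnmt3a, had groups that did not overlap, beside 14.3% of all tested probe sets with every shRNA array above every control array and 15.2% with every one below. The arrays were not level across these genes: control replicate 2 gave the highest control signal on 19 of the 22 probe sets, against 27.0% of all tested probe sets, and shRNA replicate 2 the highest shRNA signal on 15, against 28.1%. The part of these array differences in the results was not tested, other than by the fits without them given above.

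Since such an array difference is shared by genes on the same array, changes were also compared within arrays, as the log2 value of a gene minus that of another, for 8 pairs. A level is not compared between genes in this way, only how the gap differs between groups. The gap between Tet1 and Dnmt3b was the steadiest: it was -2.22, -2.25 and -2.27 in the control arrays and -0.23, -0.12 and -0.02 in the shRNA arrays, a shift of log2 2.12. The spread within either group was small beside that shift. Each shRNA array was above all control arrays for Tet1 and below all for Dnmt3b, so this gap had to separate the groups. The exact two-sided permutation p of this gap was therefore bound to be 0.1, the smallest the design allows. Adjusted over the 8 pairs it was 0.133, so that no pair could pass at 0.05.

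Within the de novo family, the gaps of Dnmt3b to both relatives were lower on every shRNA array than on any control array, in pairs that could not pass. Against Dnmt3a the gap was 3.72, 3.55 and 3.88 in the control and 3.28, 3.14 and 3.20 in the shRNA arrays (shift -0.50, exact permutation p = 0.1). Against Dnmt3l it was 0.99, 1.85 and 2.42 in the control and -0.04, -0.19 and 0.05 in the shRNA arrays (shift -1.81, exact permutation p = 0.1), and the control arrays here were far less alike than the shRNA arrays. Tet1 and Tet2 showed no gap that differed between the groups, at 2.10, 2.44 and 1.86 against 2.52, 2.13 and 1.86 (shift 0.03, exact permutation p = 0.8), and the sign of this shift turned under quantile normalization and 3 other settings. Dnmt1 and Uhrf1 likewise overlapped (shift 0.08, exact permutation p = 0.5). For Zfp57 minus Trim28 the shift was log2 0.55 (exact permutation p = 0.1), with -4.28 on the lowest shRNA array close to -4.31 on the highest control array. The shifts of Tet1 and Tet2 over Tet3, log2 1.05 and 1.01 (exact permutation p = 0.1 each), rest on a Tet3 signal that is at background on 5 of 6 arrays.

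**Figure D3:**
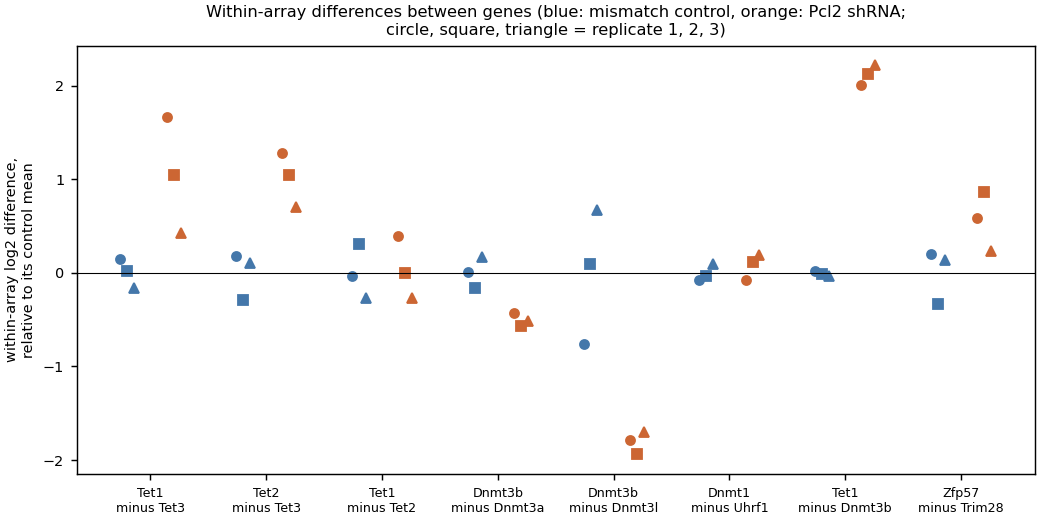
Within-array log2 difference between 2 genes (vertical axis), drawn relative to the mean of the control arrays, for 8 pairs; blue are the mismatch control and orange the Pcl2 shRNA arrays, with circles, squares and triangles for replicates 1, 2 and 3. The shRNA arrays of Tet1 minus Dnmt3b cluster about 2.12 above the control arrays, and those of Tet1 minus Tet2 and Dnmt1 minus Uhrf1 overlap with them.

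The calls held to different degrees. Tet1 and Tet2 were called under each of 19 alternative settings, with log2 values of 1.14 to 1.52 and 1.17 to 1.66. Zfp57 was called under 17 of 19 (0.60 to 0.96) and Dnmt3b under 11 of 19 (-1.12 to -0.60). No gene of the 9 changed sign under any of these settings. The replicate block moved the count of higher genes from 3 to 5, by adding Dnmt1 and Dnmt3l, and left 1 lower; with it 9.97% of all tested genes were higher and 13.8% lower. The sign was the same in all 3 same-numbered pairs on each probe set of Tet1, Tet2, Dnmt1, Dnmt3b, Dnmt3l, Uhrf1 and Zfp57 and on 4 of the 5 of Dnmt3a, and mixed for Tet3 and Trim28.

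**Figure D4:**
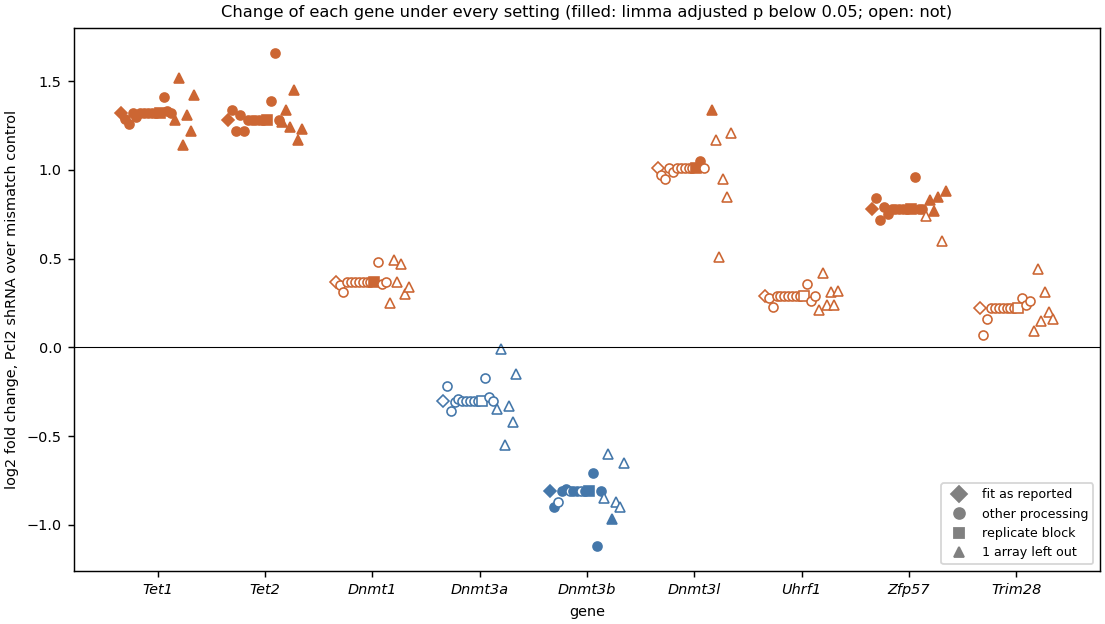
log2 fold change of Pcl2 shRNA over mismatch control (vertical axis) for the 9 tested genes under the fit as reported (diamonds), other processing settings (circles), the replicate block (squares) and with 1 array left out (triangles); filled symbols had a limma adjusted p below 0.05. All symbols of Tet1 and Tet2 are filled, and those of Dnmt3b lie between -1.12 and -0.60 with 8 open.

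The wider machinery around these genes was described through 6 lists. Their counts stand beside 4.46% of all tested genes higher and 8.16% lower, counts with the replicate block beside 9.97% and 13.8%, and counts at an unadjusted p below 0.05 beside 26.1%. Readers of methylated or unmethylated CpGs had 12 tested genes and 0 called by limma, with the replicate block too, and 0 at an unadjusted p below 0.05 (median log2 -0.11). The brightest, Kdm2b, which binds unmethylated CpG islands, gave 1514 ± 148 and 1294 ± 271. Among 19 genes of base excision repair and active demethylation 1 was called higher and 1 lower, and the replicate block made it 3 and 3 (median 0.01). Of these 19, 6 had an unadjusted limma p below 0.05. The uracil glycosylase Ung rose, with means of 705 ± 73.2 and 1062 ± 92.3 (log2 0.59, SE 0.15, adjusted p = 0.0307). Of the 6 arrays, only control replicate 2 could be left out without losing this call (adjusted p up to 0.102 for the others). With all arrays it was lost under median centring (adjusted p = 0.0921) and without an eBayes trend (0.0647). Gadd45b, a stress-induced gene linked to demethylation, read 269, 318 and 1001 in the control and 67.8, 91.8 and 157 in the shRNA arrays (log2 -2.07, SE 0.45, adjusted p = 0.0136), and its call was lost without shRNA replicate 1 (adjusted p = 0.0516).

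Of 12 genes of the methyl donor cycle, which supplies S-adenosylmethionine to the methyltransferases, 0 were called by limma and 5 had an unadjusted p below 0.05 (3 higher and 2 lower with the replicate block; median 0.09); 1 became higher and 1 lower without control replicate 2, and 1 lower without shRNA replicate 3. Its brightest, Ahcy, which clears the product that inhibits methyltransferases, gave 3528 ± 796 and 3066 ± 351. Of 21 chromatin partners of Trim28 and of methylated DNA, 0 were called by limma and 6 had an unadjusted p below 0.05 (median 0.27), with 17 of 21 values above 0, where 52.4% of all tested genes were. With the replicate block 6 were higher, without control replicate 2 it was 4, and without control replicate 1 or shRNA replicate 3 it was 1. Its brightest, Pcna, the replication clamp, gave 5115 ± 1275 and 6544 ± 390.

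A list of 20 transcription factors of stem cells held several that are known to bind or regulate Tet and Dnmt genes. It had 7 higher and 1 lower (11 and 2 with the replicate block, median 0.52). An unadjusted limma p below 0.05 was reached by 11 of the 20. Klf4 rose by log2 1.78 (SE 0.18), Esrrb by 1.47 (SE 0.16) and Tfcp2l1 by 1.24 (SE 0.18). Smad3 fell by 0.67 on the log2 scale (adjusted p = 0.0451), a call lost when any array other than control replicate 2 was left out. With all arrays the call was also lost under quantile normalization (adjusted p = 0.059), with dim probe sets kept (0.0615) and without an eBayes trend (0.0596). With the mean of probe sets Smad3 gave log2 -0.49 (adjusted p = 0.141). Prdm14, a factor known to repress Dnmt3b in these cells, named after its values were seen, read 139, 139 and 84.8 in the control and 302, 397 and 302 in the shRNA arrays (log2 1.43, SE 0.23, adjusted p = 0.00268). Every shRNA array was above every control array. Whether Prdm14 bears on Dnmt3b here was not tested. Of the list 12 did not pass, among them Sall4 (log2 0.04) and Otx2 (0.05), also named after their values were seen.

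The last list held 42 genes, most of them germline genes whose promoters are known to be silenced by DNA methylation in other cells, with Zfp42 as a stem cell gene among them. Of its 27 tested members, out of 37 measured, 9 rose, 2 fell and 16 did not pass (median 0.38). Zfp42 was 1 of the 9 that rose, and it is also counted among the stem cell markers and factors above. Of the 27, 14 had an unadjusted limma p below 0.05. The signal filter used the mean over all 6 arrays, so a dim gene could enter through a high group alone. Smc1b and Tex11, both among the 9, were above background on every shRNA array and at or below it on every control array. Such rises are in part built into the count. Rnf17, a Tudor-domain gene of male germ cells, read 294, 319 and 229 in the control and 688, 707 and 656 in the shRNA arrays (log2 1.28, SE 0.17, adjusted p = 0.00107). Dazl, an RNA-binding protein of germ cells, read 26.6, 39.5 and 50.5 against 132, 121 and 211 (log2 1.81, SE 0.28, adjusted p = 0.0024). Smc1b, a meiotic cohesin subunit, was at or below background on all control arrays and read 44.2, 83.4 and 81.9 in the shRNA arrays, at least 3.31-fold higher. The fallers were Tdrkh, a piRNA pathway gene (86.2 ± 15.2 to 31.9 ± 6.72, log2 -1.26, SE 0.24, adjusted p = 0.00637), and the homeobox gene Rhox5. Rhox5 read 1833, 722 and 427 in the control and 172, 292 and 341 in the shRNA arrays (log2 -1.66, SE 0.45, adjusted p = 0.0362). Without control replicate 1, its highest array, it gave log2 -1.09 (adjusted p = 0.0654). Its call was also lost without control replicate 2 and without shRNA replicates 1 or 2. With all arrays it was lost with dim probe sets kept (adjusted p = 0.0692) and without an eBayes trend (0.0609). Among the 16 that did not pass were Ddx4 (167 ± 16.0 and 127 ± 9.54), Sycp1 (29.4 ± 3.55 and 31.1 ± 6.28) and Taf7l (42.7 ± 5.46 and 45.5 ± 6.77), named after their values were seen.

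**Figure D5:**
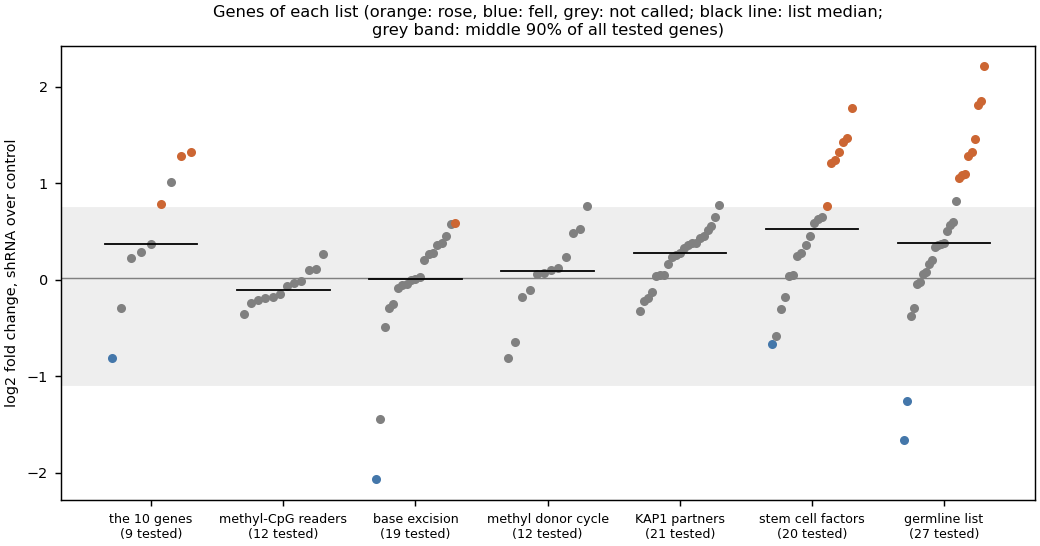
log2 fold change of Pcl2 shRNA over mismatch control (vertical axis) of each tested gene in the 9 tested members and 6 related lists (horizontal axis); orange rose, blue fell, grey was not called, black lines are list medians and the grey band holds the middle 90% of all tested genes, from -1.09 to 0.74. None of the 12 CpG readers is coloured, and 9 genes of the germline list and 7 stem cell factors are orange.

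The genes whose log2 values over the 6 arrays were most like those of Tet1 were Icam1, Aplp1 and the gene annotated as Mir1949, with Pearson's r of 0.994 to 0.995. For Tet2 they were Rbm47, Ildr1 and Rab3d (0.996 to 0.998), and for Dnmt3b Jmjd8, Tsen15 and Car14 (0.987 to 0.996). Such values over 2 groups of 3 mostly reflect the difference between the groups, and 210, 198 and 63 genes reached 0.95 for Tet1, Tet2 and Dnmt3b.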

How the data were processed

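Total RNA from 6 samples was hybridised to Affymetrix Mouse Genome 430 2.0 arrays, per the labels. The authors deposited 1 intensity for each probe set, a MAS5 signal by the submitters' processing notes; per the labels the analysis used GCOS 1.4, and its settings were not stated there. With 2% cut from either end, every array had a mean of 150.001, and this scaling was kept. Of 45101 probe sets, 34945 named 1 gene in the platform annotation, 932 several and 9160 none, and 64 were controls; 34741 of the 34945 were matched to current symbols in the GRCm38.p6 gene table.

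The analysis used log2(signal + 7), which understates the fold changes of dim genes; the pseudocount 7 is the signal at the 20th percentile. Tests took the probe sets that named 1 gene with a mean at or above the 40th percentile, near a signal of 20.2, and the brightest stood for its gene. limma 3.58.1 in R 4.3.3 (eBayes with an intensity trend, two-sided) gave p-values, adjusted over all genes or all probe sets by Benjamini-Hochberg. Single values were tested by exact permutation over 20 relabellings. Background, 20.3, is the highest signal of 27 bacterial control probe sets on any array, and a fold against it is given as at least that size. The procedure was also run on simulated data, whose noise was independent between arrays, unlike the shared deviations described below. No result rests on that run.

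The members, the lists, the pairs and the alternatives were chosen with earlier results of these data known. An alias that pointed to an unrelated gene was removed from a list after the files were read. Named were all members, Mtf2, up to 3 genes per list and direction with the smallest adjusted p (or the brightest where none was called), and the 3 genes most correlated with Tet1, Tet2 and Dnmt3b; others are marked. Samples that share a replicate number deviated together from their group means (correlations 0.26 to 0.36). The correlations for unlike numbers, -0.33 to -0.03, are not separate evidence. Deviations sum to 0 within a group, so positive values for like numbers pull those for unlike numbers below 0. On the correlations of like numbers alone the replicate number was used as a block in an alternative fit, as the labels do not say what a number marks. The fit as reported and the exact permutations took the samples as unpaired. Over tested probe sets arrays correlated at 0.957 to 0.974 within and 0.903 to 0.944 between groups. The array number limits the precision.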

Additional observations from a re-analysis of the deposited data

How the results depend on the processing

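Alternatives changed the scaling, pseudocount, signal filter, floor, eBayes settings, replicate block, array weights and probe sets, and left out each array. Over all genes, 1305 were higher and 1808 lower with the replicate block (584 and 1068 without it), 427 were higher and 1204 lower with median centring (26.2% of calls higher, against 35.4%), and 885 were higher with array weights; without 1 array 261 to 577 were higher and 718 to 1021 lower, the fewest higher without Pcl2 shRNA replicate 2, then 386 without Pcl2 shRNA replicate 1. With the replicate block 5 of the 9 tested members were higher and 11 of the 20 stem cell factors; without 1 array 2 to 3 members were higher and 0 to 1 lower, and 5 to 8 stem cell factors and 6 to 11 of the germline list were higher. The count of lower members was 0 with median centring, with no signal filter and with no eBayes trend. Reversed values were those of the Dnmt3a probe set at -0.08, which gave 0.06 with array weights and -0.75 to 0.46 without 1 array (0.05, 0.46 and 0.40 without control replicate 1, control replicate 2 or shRNA replicate 3), and of Tet1 minus Tet2, which gave -0.05 under quantile normalization, -0.34 with the mean of probe sets, and -0.14 to 0.19 without 1 array (below 0 without control replicate 3 or shRNA replicate 1); the cause was not tested. Apart from Dnmt1 and Dnmt3l, the replicate block changed no call among the members. Without cross-hybridising probe sets Dnmt3l had no value. Signals near background limit Tet3, the dimmer Tet2 probe set, Smc1b, Tex11 and Cdx2.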
